A study of Mus musculus with 3 samples.

Results

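The hippocampus of PS19 mice was compared with that of wild-type (WT) mice by RNA-seq. PS19 mice carry a transgene for a mutant human tau protein driven by the mouse Prnp promoter, and they are used as a model of the tau deposits of Alzheimer disease and frontotemporal dementia. The series holds 3 libraries of hippocampal RNA from 10-month-old C57BL/6 mice, of the genotypes WT, PS19 and PS19 Zbp1+-. The WT and PS19 libraries are used here, 1 per genotype, and the library with a Zbp1 allele lost is not. The labels name PS19 as a genotype without giving the transgene's copy number or expressing cells, and they do not give sex or say whether an RNA sample came from 1 animal or a pool. With 1 library a side no difference has a replicate check, no p-value can be given, and a difference between genotypes cannot be told apart from one between 2 samples. The unit was FPKM, fragments per kilobase of gene after scaling for library size, and the difference was that of log2(FPKM + 1), PS19 minus WT. Genes entered where the table calls them protein-coding and where either library reached an FPKM of 1, which held for 12703 of 22046 protein-coding genes and of 54532 genes of all kinds. A gene was called higher or lower at a difference of 1 log2 unit, that is 2-fold, and "rose" and "fell" are used only of called genes. Just inside the entry limit stood Ccdc96, at 0.744 FPKM in WT and 1.0 in PS19, and just outside it Mmp19, at 0.246 FPKM in WT and 0.999 in PS19.

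Tau is a neuronal protein that binds microtubules. In the PS19 line it becomes hyperphosphorylated and aggregates in neurons of the hippocampus and cortex, and microglia and astrocytes react around them. The hippocampus holds excitatory pyramidal neurons in the fields CA1 to CA3, granule neurons in the dentate gyrus, several classes of inhibitory interneurons, glia and vessels, and all of these contribute RNA to a bulk sample. In such a sample fewer cells of a type and less RNA per cell cannot be told apart.

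The libraries held 16746085 reads in WT and 16400328 in PS19, recovered from the FPKM values, with 12117 and 12512 protein-coding genes at an FPKM of 1 or more. Pairs of read counts below give WT first and PS19 second. The labelled tissue was checked on defining markers. Prox1 of dentate granule neurons stood at 8.76 FPKM in WT and 9.51 in PS19, Wfs1 of CA1 at 38.8 FPKM in WT and 27.1 in PS19, Grik4 of CA3 at 9.63 FPKM in WT and 9.22 in PS19 and Zbtb20 of hippocampal pyramidal and granule neurons at 6.42 FPKM in WT and 11.4 in PS19. Mouse Mapt, the endogenous tau gene, had 8191 and 8473 reads, and reads of the human tau transgene are not analysed here. The Prnp gene, whose promoter drives the transgene, had 16390 and 26704 reads. Whether any reads counted at Prnp came from the transgene was not tested. Both libraries held Xist reads (11062 and 13350) and 0 reads of the Y-linked Ddx3y, Eif2s3y, Kdm5d and Uty, so they do not differ in that respect.

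Of the 12703 genes tested, 280 were at least 2-fold higher in the PS19 library (2.2%) and 37 at least 2-fold lower (0.291%). At 1.5-fold the counts were 806 (6.34%) and 344 (2.71%). The centre of the distribution moved little: the median difference was -0.03, the middle 50% of genes ran from -0.21 to 0.18, and 87.1% lay within 0.5 log2 units of 0. Of all tested genes 5887 lay above 0 (46.3%) and 6816 below, against which the counts of list members on either side of 0 can be read. The genes were read by function through 85 lists that together hold 3159 of the genes tested. Genes of immune function held 114 of the 280 higher genes among 284 tested, and glial lists 23 among 113. The other kinds of list, each taken as a whole, held fewer called genes for their size than these. Single lists among them could hold more than the glial lists, as did the glucocorticoid response genes with 5 of 22. A gene can stand in lists of several kinds. Counts of called genes here and in each list below, 0 included, are to be read beside the shares over all tested genes. These shares are 2.2% higher and 0.291% lower. Neuronal lists had 8 higher and 8 lower genes of 456, metabolic lists 15 and 2 of 554, signalling lists 16 and 3 of 563, lists of gene expression and translation 13 and 3 of 894, and vessel and matrix lists 6 and 2 of 167. Cytoskeleton lists (102 genes) and protein quality control lists (194 genes) held no called gene in either direction. Of the higher genes 117 stood in no list, as did 20 of the lower ones.

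**Figure D1:**
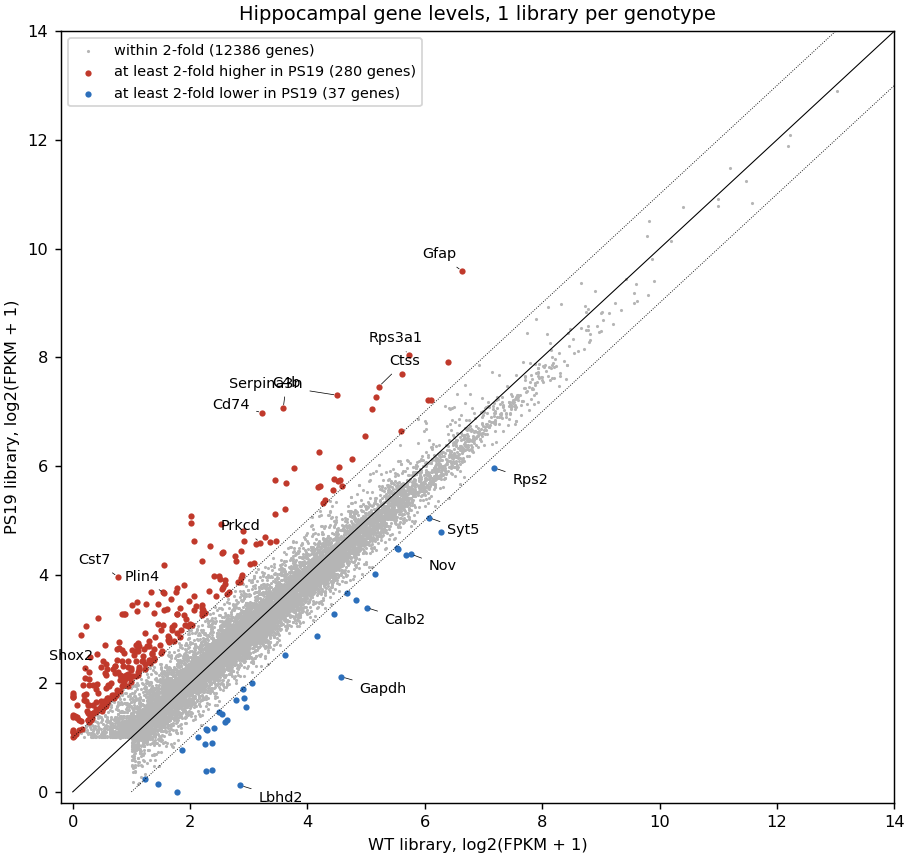
Level of each tested gene in the WT library (x axis) and the PS19 library (y axis), both as log2(FPKM + 1), with 1 point per gene. The 280 genes at least 2-fold higher (red) reach up to Cd74, C4b and Gfap, while the 37 lower genes (blue) lie mostly near the 2-fold line, with Gapdh and Lbhd2 furthest below it.

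Interferon-stimulated genes, which type I and type II interferons switch on through STAT and IRF factors, were higher as a group. Of 45 tested, 31 rose and 0 fell, and all 45 lay above 0, with a median of 1.20. Ifit3, whose product binds viral RNA complexes, had 92 and 897 reads, Ifit1 39 and 400 reads and Isg15, a ubiquitin-like modifier, 25 and 155 reads. Their promoters are shown because many of these genes share a short element, the interferon-stimulated response element. Each sequence runs 5′ to 3′ on the gene's strand from 250 bases before to 50 bases after the RefSeq start (GRCm38.p6), and capitals mark every match to GAAANNGAAA on either strand. The windows are chr19:34583279-34583578 (plus strand) for Ifit3, chr19:34607707-34608006 (plus) for Ifit3b, chr19:34640639-34640938 (plus) for Ifit1 and chr4:156200769-156201068 (minus) for Isg15.
Ifit3: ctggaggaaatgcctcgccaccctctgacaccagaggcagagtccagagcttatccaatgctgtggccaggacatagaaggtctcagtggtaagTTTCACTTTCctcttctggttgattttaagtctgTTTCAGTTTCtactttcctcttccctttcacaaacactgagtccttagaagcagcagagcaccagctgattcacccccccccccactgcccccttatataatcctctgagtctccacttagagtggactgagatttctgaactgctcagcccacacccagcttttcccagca
Ifit3b: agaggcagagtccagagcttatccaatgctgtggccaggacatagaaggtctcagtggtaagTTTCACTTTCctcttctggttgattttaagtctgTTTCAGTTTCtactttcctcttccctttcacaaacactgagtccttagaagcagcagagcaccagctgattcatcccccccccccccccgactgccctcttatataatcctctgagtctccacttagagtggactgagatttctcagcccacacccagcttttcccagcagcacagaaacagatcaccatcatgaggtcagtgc
Ifit1: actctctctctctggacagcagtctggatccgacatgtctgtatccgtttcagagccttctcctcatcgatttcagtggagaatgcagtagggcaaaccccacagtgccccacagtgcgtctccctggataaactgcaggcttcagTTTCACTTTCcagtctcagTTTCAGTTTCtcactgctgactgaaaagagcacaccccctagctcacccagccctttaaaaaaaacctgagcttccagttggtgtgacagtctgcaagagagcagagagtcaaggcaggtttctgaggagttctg
Isg15: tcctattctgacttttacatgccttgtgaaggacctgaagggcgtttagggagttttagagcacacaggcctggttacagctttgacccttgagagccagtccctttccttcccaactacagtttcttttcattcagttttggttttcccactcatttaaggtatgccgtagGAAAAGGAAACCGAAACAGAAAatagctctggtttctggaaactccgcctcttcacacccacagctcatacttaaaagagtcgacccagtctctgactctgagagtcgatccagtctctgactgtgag

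Ifit3, Ifit3b and Ifit1 each hold 2 matches and Isg15 holds 3. Ifit3 and Ifit3b are near-identical neighbours whose reads may be split between them, and their reads together went from 131 to 1250. A RefSeq promoter window was found for 9964 of the genes tested, for 206 of the higher genes and for 21 of the lower genes. The element was present in 3.58% of all windows and in 16% of those of higher genes (33 of 206). Among higher genes outside the interferon list it was present in 18 of 184 windows (9.78%). For interferon-stimulated genes it was present in 17 of 34 windows of those tested (50%) and 15 of 22 of those that rose (68.2%). It was present in 0 of 21 windows of lower genes. The other motifs searched on both strands were TGANTCA (AP-1), in 6.02% of all windows and 15.5% of those of higher genes, TTCNNNGAA (GAS), in 8.01% and 12.6%, GAGGAAGT (PU.1), in 3.32% and 7.28%, and TGACGTCA (CRE), in 3.49% and 0.971%. Matches of different motifs can share bases, which was not corrected for. A match is a description of these letters and not a measured binding site.

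Genes of antigen presentation, complement and myeloid cells were higher as well. Genes of MHC molecules and peptide loading rose in 14 of 27 cases and complement genes in 7 of 20, with medians of 1.01 and 0.54. Of 33 tested Fc receptors, integrins and immune kinase genes, 20 rose and 32 lay above 0, with a median of 1.11. Itgb2, the beta chain of leukocyte integrins, rose by 2.21 (73 and 529 reads), and Laptm5, a lysosomal membrane protein of leukocytes, by 1.91 (423 and 1768 reads). Coro1a, an actin-binding protein of leukocytes and neurons, was the gene of the list below 0, at -0.40. Of 29 cytokine and receptor genes 8 rose. The receptors Osmr (1.64), Csf3r (1.54) and Csf1r (1.42) and the ligand Csf1 (1.31) rose, while Il34, a neuronal ligand of the Csf1r receptor, stood at -0.51 with 839 and 582 reads. Tnf had 0 and 5 reads and Il1b 3 and 16 reads, too few for either gene to enter.

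Chemokine genes were divided, and 9 of 20 rose. The ligands Ccl6, Ccl12, Ccl3, Ccl5 and Ccl4 rose by 1.62 to 2.76 and were close to absent in WT. Ccl6 had 11 and 254 reads, Ccl12 1 and 59, Ccl3 2 and 51, Ccl5 0 and 39 and Ccl4 3 and 33. The abundant chemokines of neurons and stroma lay slightly below 0. Cx3cl1 stood at -0.21 (8464 and 7315 reads), Cxcl12 at -0.21 and Cxcl14 at -0.06. The median of the chemokine list was 0.98 over 20 genes and -0.21 when only genes with a mean FPKM of at least 5 were kept, because that limit removes the rising ligands. Disease-associated microglia genes, which microglia switch on around protein deposits and damage, rose in 15 of 26 cases, with all 26 above 0 and a median of 1.22. Cst7, an inhibitor of cathepsins, had 12 and 248 reads, Itgax, an integrin chain, 14 and 602 and Cd52, a surface glycoprotein of leukocytes, 16 and 179. Homeostatic microglia genes rose in 10 of 24 cases and 0 fell, with 21 above 0 and a median of 0.86. Fcrls (2.56), Cx3cr1 (2.18) and Irf8 (1.47) rose, whereas P2ry12, a purinergic receptor of resting microglia, had 490 and 444 reads (-0.13) and Tmem119 440 and 497 reads (0.16).

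Lysosomal genes were higher in part. Lyz2, Ctss, Cd68 and Gpnmb rose, by 1.60 to 2.30, and 8 of 52 genes rose in all, with a median of 0.46. Pld3, a neuronal lysosomal enzyme, stood at -0.43, at 177 FPKM in WT and 131 in PS19. Few lymphocyte genes could be tested. Cd3e had 0 and 4 reads and Cd8a 7 and 18 reads, below the entry limit, and of the 3 lymphocyte genes that entered Cd22 rose by 1.01 and Zap70 stood at -0.37. Of 42 Alzheimer disease risk genes, 6 rose, namely Trem2, Inpp5d, Cd33, Spi1, Ms4a6d and Ctsh, all of them expressed by microglia. The risk genes Ptk2b and Mef2c, which neurons express, stood at -0.19 and -0.13.

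Astrocyte genes rose in part. Of 29 reactive astrocyte genes, which increase after injury or inflammation, 17 rose, with a median of 1.04. Vim, an intermediate filament protein, had 1029 and 5040 reads (difference 2.20), Osmr 97 and 749 reads, and Aspg, an asparaginase, 62 and 602 reads (2.43). Other genes of that list lay near 0, where Hspb1 stood at -0.04, Amigo2 at -0.04 and Fkbp5 at 0.06. Homeostatic astrocyte genes had a median of 0.32 over 32 genes, and 3 of them rose. These were Aqp4, the water channel of astrocyte endfeet (1945 and 5464 reads, ratio 2.80, 95% interval 2.66 to 2.95), Etnppl, an enzyme that breaks down phosphoethanolamine (1.14), and Kcnj10, the potassium channel Kir4.1 (1.04). Mfge8, a bridging protein for phagocytosis that astrocytes secrete, stood lowest at -0.86 (3166 and 1716 reads).

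Myelin genes of oligodendrocytes lay above 0 in all 33 cases, with a median of 0.75, but 3 passed 2-fold. They were Myrf, the transcription factor of myelination (1055 and 2562 reads, difference 1.17), Il33, an alarmin made by oligodendrocytes and astrocytes (1.12), and Cldn11, the tight junction protein of myelin (2195 and 4772 reads, 1.11). Precursor genes had a smaller median of 0.28 over 19 genes with 0 calls. Pdgfra, the growth factor receptor that marks precursors, had 1077 and 1055 reads (-0.03). Cspg4, the other defining marker, had 362 and 483 reads (0.28).

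Lipid genes differed by step of the pathway. Of 22 cholesterol synthesis enzymes 20 lay below 0 and none passed 2-fold, with a median of -0.32 and of -0.29 after centring within bins of gene length. Hmgcs1, which makes the HMG-CoA used for sterols, had 3228 and 1932 reads (ratio 0.597, 95% interval 0.564 to 0.632), Fdft1, squalene synthase, 1251 and 696 reads (ratio 0.555, 95% interval 0.505 to 0.610), and Cyp51 and Msmo1, which demethylate lanosterol, stood at -0.74 and -0.81. Lss and Ebp stood above 0, at 0.13 and 0.10. Genes of cholesterol export and transport lay on the other side. Abca1 (chromosome 4, 53030787 to 53159895), which loads cholesterol onto apolipoproteins, rose by 1.40 (842 and 2523 reads), Apod by 1.16 (2912 and 6591 reads), and Apoe stood at 0.69 (33308 and 53912 reads). Cyp46a1, the neuronal enzyme that turns cholesterol over, stood at -0.39.

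Of 38 genes of fatty acid synthesis and oxidation, 1 rose. It was Plin4 (chromosome 17, 56100591 to 56109803), a lipid droplet coat protein, with 194 and 1155 reads and a difference of 2.09. Cpt1a, which admits fatty acids to mitochondria, stood at 0.69, and Fabp7, the fatty acid binding protein of astrocytes and neural progenitors, stood lowest at -0.89 (356 and 183 reads). Plin4 is also a glucocorticoid response gene, a list in which 5 of 22 rose with a median of 0.33. The others were Cdkn1a, the cell cycle inhibitor p21 (167 and 804 reads, 1.92), Mt2 (1.16), Hif3a (1.03) and Lcn2 (1.01). The glucocorticoid targets Fkbp5 (0.06), Tsc22d3 (0.08) and Ddit4 (-0.11) stood near 0, and Dusp1 at -0.50.

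Metal and redox genes held a few large differences. Slc11a1, the iron and manganese exporter of phagosomes, rose by 2.14 (30 and 351 reads), Hmox1, heme oxygenase, by 1.28 (96 and 277 reads) and Lcn2, an iron-siderophore binding protein, by 1.01. The main iron storage and uptake genes were close to level or moderately above 0. Fth1 stood at 0.28 (35099 and 42692 reads), Trf, the transferrin made by oligodendrocytes, at 0.61, and Tfrc, its receptor, at -0.10. Mt2 and Mt1, the zinc-binding metallothioneins, stood at 1.16 and 0.71, while Slc30a3, which loads zinc into synaptic vesicles, stood at -0.90 (1561 and 813 reads). Of 42 antioxidant genes, Hmox1 and Prdx6 (1.05) rose and Gstp2 fell, and Gstp2 is one of the copies described below. Aspg was the called gene among 27 amino acid and one-carbon enzymes.

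**Figure D2:**
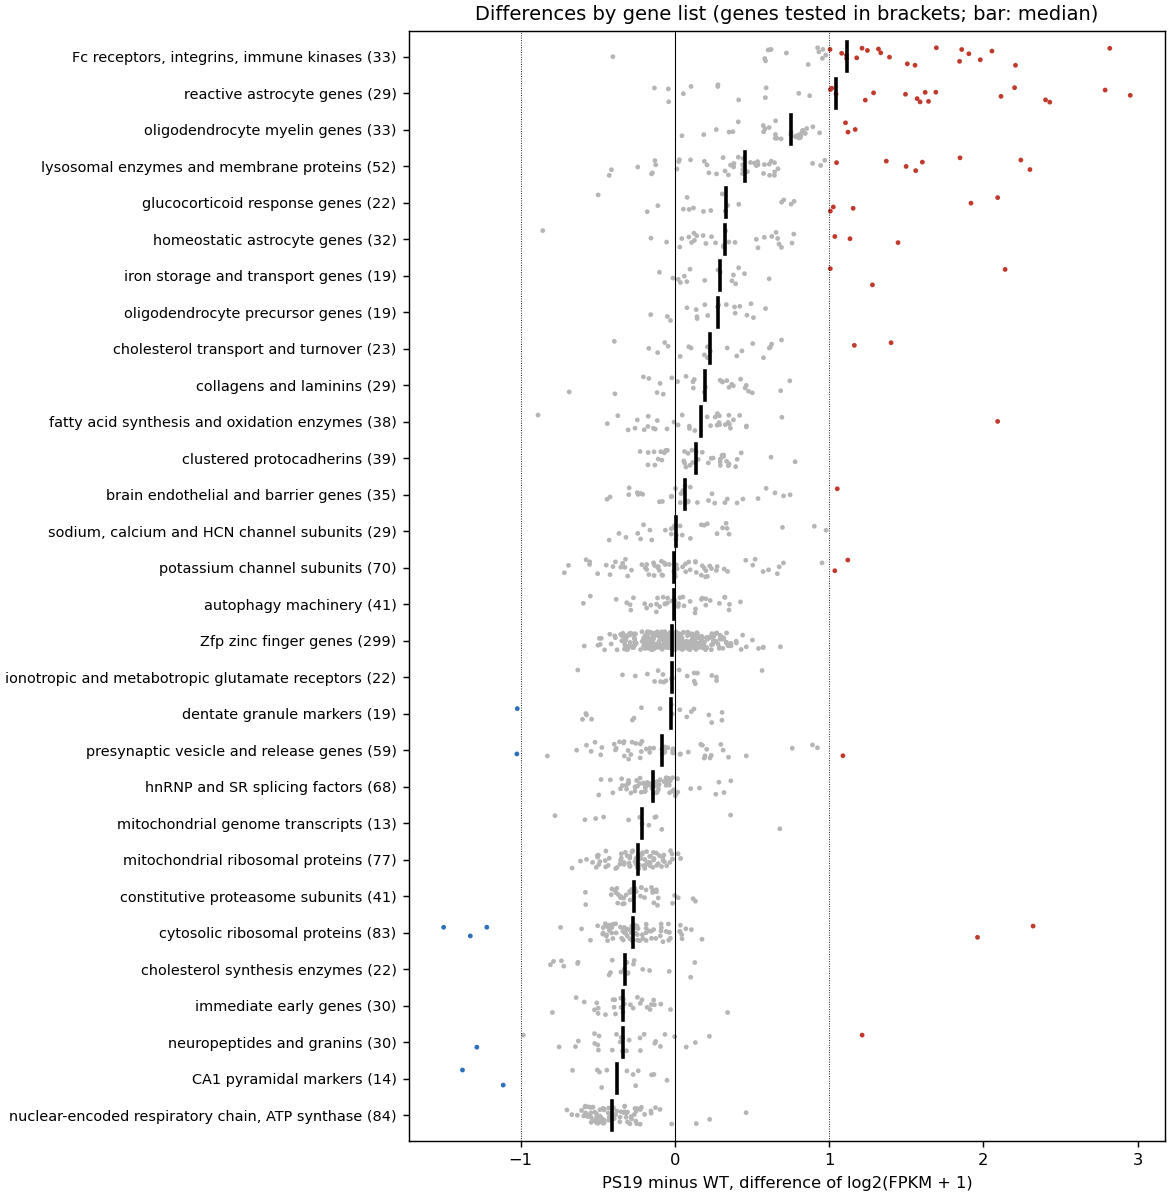
Difference in log2(FPKM + 1), PS19 minus WT, of each tested gene (points) in 30 gene lists, ordered by the list median (black bars), with dotted lines at 2-fold and genes past it in red or blue. Myelin genes form a tight group near 0.75, ion channels and zinc finger genes centre near 0, and the respiratory chain genes lie around -0.41.

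Most genes of energy metabolism lay below 0 by less than 2-fold. Of 84 nuclear-encoded subunits of the respiratory chain and ATP synthase, which make ATP from NADH and oxygen, 81 lay below 0, with a median of -0.41. Cox7c stood at -0.70, Atp5l at -0.63 and Ndufa1 at -0.60. The 3 above 0 were Cox6a2 (0.46), Cox8b (0.23) and Cox7a1 (0.14), forms typical of muscle. Of 29 tricarboxylic acid cycle genes 22 lay below 0, with a median of -0.21. Mdh1, Mdh2 and Sdhb stood at -0.42, -0.42 and -0.43, and Idh2 and Suclg2 at 0.41 and 0.52. In glycolysis Hk2, a hexokinase of low level in brain, rose by 1.33 (55 and 294 reads), while the abundant Tpi1, Eno1 and Ldha stood at -0.46, -0.39 and -0.70. Gapdh fell by 2.46 (1629 and 239 reads). Its WT level, 22.8 FPKM, was far below those of Eno1 (176) and Tpi1 (199.9), and the gene has many processed copies in the genome.

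The difference also varied with gene length, which bears on housekeeping groups made of short genes. Median differences were -0.27 for 83 cytosolic ribosomal protein genes, -0.24 for 77 mitochondrial ones and -0.27 for 41 constitutive proteasome subunits. Over all genes the median difference ran from -0.25 in the 10% of shortest genes (median length 1278 bases) to 0.14 in the 10% of longest (12605 bases), rising at every step. After centring within 10 bins of length, a step chosen after the data were seen, these 3 medians were -0.09, -0.11 and -0.11. The respiratory chain median was -0.23 after the same step, and those of neuropeptides and immediate early genes went from -0.34 and -0.33 to -0.13 and -0.23. The mitochondrial genome, whose 13 messages are short, went from -0.21 to 0.04, so its sign turned, and it was -0.02 with GC content added to the bins. The part of length in these differences was not tested beyond this. Of the genes named here, Calb1 (-0.98), Clec3b (-0.93), Ctxn3 (-0.98), Hes5 (-0.86), Hif3a (0.99), Sstr2 (-0.93) and Syt5 (-0.87) no longer reached 2-fold after this step. CA1 markers had a median of -0.38 before and -0.32 after, and cholesterol synthesis enzymes -0.32 and -0.29. With this centring the median of the presynaptic genes, a list of longer genes, went from -0.08 to -0.15 and that of the postsynaptic scaffold genes from -0.04 to -0.09.

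**Figure D3:**
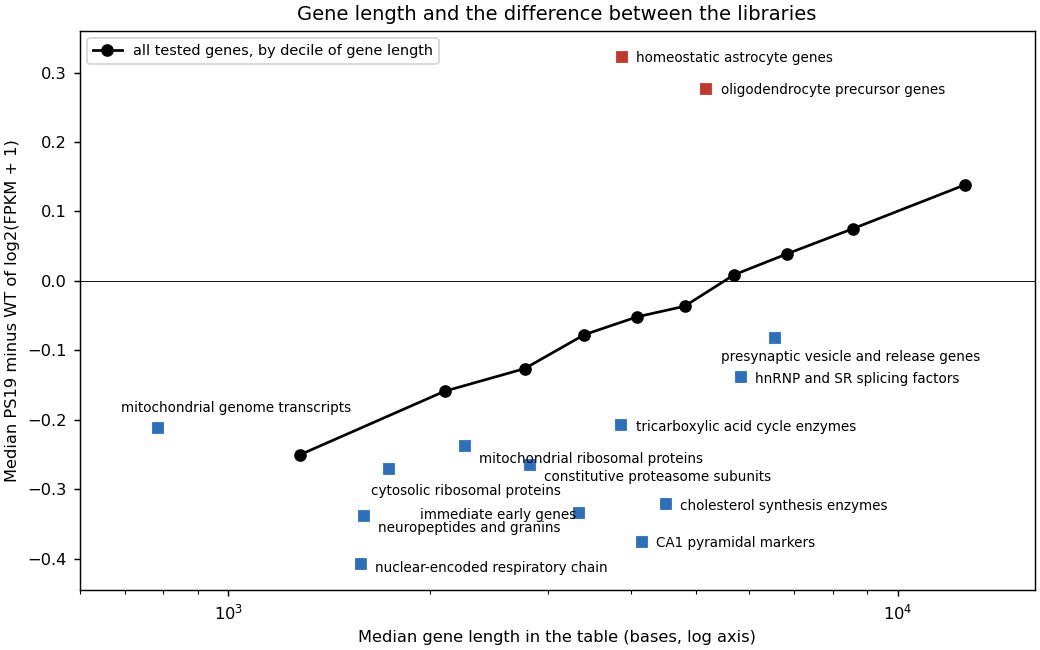
Median difference in log2(FPKM + 1), PS19 minus WT, against median gene length on a log axis, for all tested genes by decile of length (black circles and line) and for 14 gene lists (squares, red above 0 and blue below). The deciles run from -0.25 to 0.14, and the respiratory chain, neuropeptide, cholesterol synthesis and CA1 lists lie below that line.

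Hippocampal neuron markers differed by field. None of the 14 tested CA1 markers lay above 0, with a median of -0.38, and 2 of them fell. Nov (chromosome 15, 54745702 to 54754039), a secreted matricellular protein, had 2626 and 983 reads (ratio 0.374, 95% interval 0.347 to 0.402), and Dcn, the proteoglycan decorin, 1140 and 474 reads (ratio 0.415, 95% interval 0.372 to 0.462). Dcn is also made by meningeal fibroblasts, whose other matrix genes Lum and Bgn stood at -0.44 and 0.55. Mpped1, Wfs1 and Spink8, which label CA1 pyramidal neurons, stood at -0.66, -0.50 and -0.49. Markers of CA2 and CA3 had a median of -0.04 over 21 genes (0.08 with each library rescaled to the same sum) and 0 calls, with Grik4 at -0.06, Necab2 at -0.46 and Trps1 at 0.41.

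Dentate markers were mixed, with 8 of 19 above 0 and a median of -0.02. Calb1, a calcium buffer of granule and CA1 neurons, fell by 1.02 (2053 and 971 reads), and C1ql2 and C1ql3, synaptic organisers that granule neurons release, stood at -0.57 and -0.54. Prox1, which sets granule neuron identity, stood at 0.11 (1268 and 1379 reads). Calb2, the calretinin of mossy cells, immature granule neurons and some interneurons, fell by 1.62 (937 and 286 reads, ratio 0.305, 95% interval 0.266 to 0.348). Other mossy cell and immature neuron markers were not called, among them Drd2, which stood at -0.41, Calcrl at 0.10, Dcx at -0.07 and Neurod1 at -0.67. Mossy cell and entorhinal markers had a median of 0.05, with 6 of 11 above 0. Adult neurogenesis markers had a median of -0.17, with 4 of 16 above 0. Proliferation genes reached the entry limit in 8 of 26 cases and held 0 calls.

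Genes that mark the thalamus, which borders the hippocampus, were higher in PS19. Prkcd, Tcf7l2 and Rora, the thalamic members of a list of neighbouring regions, rose by 1.39, 1.29 and 1.15. A wider thalamic list was then written after those values had been seen, so its count is a description only. Of its 25 tested genes 12 rose and 1 fell, with a median of 0.99. Shox2 (chromosome 3, 66971727 to 66981771), a transcription factor of thalamic neurons, had 12 and 206 reads, Tnnt1, a troponin, 30 and 194 reads, and Slc17a6, the vesicular glutamate transporter of thalamic neurons, 278 and 698 reads. Synpo2 had 74 and 669 reads, Plekhg1 285 and 1121 reads and Prkcd 780 and 2211 reads. Lhx2 and Zic4 stood at -0.55 and -0.36, and Cbln1 fell by 1.31 (271 and 78 reads). The receptor genes Vipr2 and Adra1b, of the same list, stood at 1.03 and 0.99. The summed level of the 25 genes was 88.9 FPKM in WT and 153 in PS19, and none of them was at 0 reads in either library. Gbx2, a further thalamic marker, had 1 and 9 reads and did not enter. How much thalamic tissue entered each sample is not in the labels, and its part in these and other differences was not tested. The striatal marker Drd1 stood at -0.36.

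**Figure D4:**
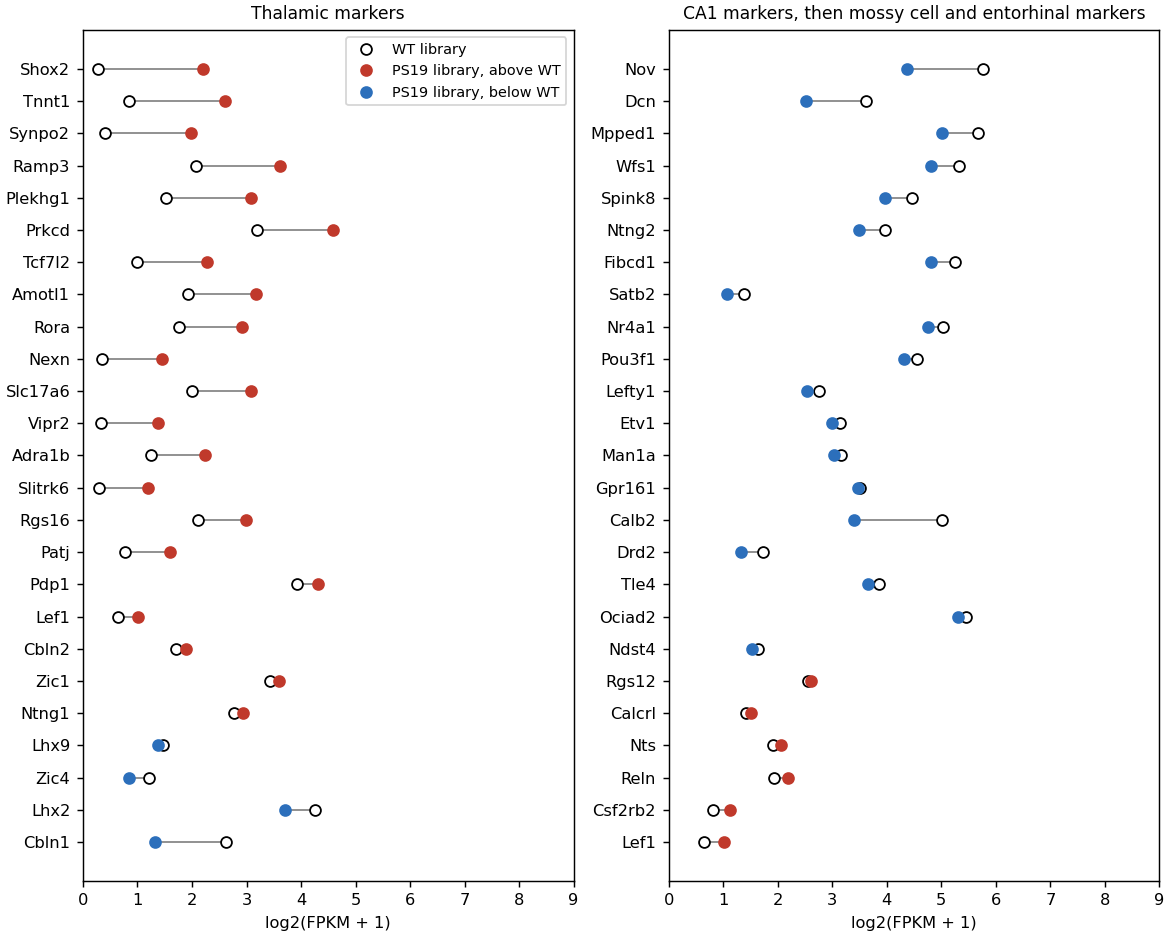
Levels of 25 thalamic markers (left) and of 14 CA1 markers followed by 11 mossy cell and entorhinal markers (right), as log2(FPKM + 1), in the WT library (open circles) and the PS19 library (filled, red above WT and blue below). Of the thalamic markers 21 lie higher in PS19, led by Shox2, while all 14 CA1 markers lie lower, and Calb2 has the longest line among the mossy cell and entorhinal markers.

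Neuropeptide genes stood mostly below 0, in 26 of 30. Grp (chromosome 18, 65872820 to 65886579), gastrin-releasing peptide, fell by 1.28 (308 and 116 reads), and Cort, Cck, Sst and Pnoc of interneurons stood at -0.98, -0.75, -0.64 and -0.63. Avp rose by 1.21, on 18 and 55 reads. Of 31 interneuron genes 14 lay above 0 and 17 below. Their median was -0.07, and 0.08 with each library rescaled to the same sum. At 1.5-fold 0 of them were higher and 6 lower, and Calb2 was the called gene. Of single interneuron markers, Gad1 stood at 0.0025, Gad2 at 0.38 and Pvalb at 0.21. Among peptide receptors Sstr2 fell by 1.08 (217 and 83 reads), and Crhr1, Mchr1 and Cckbr stood at -0.78, -0.76 and -0.72. Of 30 immediate early genes, which neuronal activity induces, 29 lay below 0 and none passed 2-fold. Nr4a2, Egr4 and Bdnf stood at -0.79, -0.64 and -0.52, Fos at -0.03, and Per1 above 0 at 0.34.

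Synaptic and channel genes were close to the middle of all genes. Glutamate receptor genes had a median of -0.02 (22 genes), GABA-A receptor subunits -0.06 (13), postsynaptic auxiliary and scaffold genes -0.04 (44), presynaptic genes -0.08 (59), potassium channel subunits -0.0023 (70), and sodium, calcium and HCN channel subunits 0.01 (29). Each of these medians changed sign under at least 1 other scaling or filter, the postsynaptic and presynaptic ones to 0.09 and 0.05 with each library rescaled to the same sum. Grm2, the receptor of granule neuron terminals, stood at -0.63, and the highest glutamate receptor gene stood at 0.57. Gabra5, the extrasynaptic GABA-A subunit rich in CA1, stood at -0.49. The GABA-A subunits furthest from 0 were Gabrr2 and Gabrb2, both above it, with the highest subunit at 0.73. Nrgn, a calmodulin-binding protein of spines, stood at -0.58 (19553 and 13111 reads). Syt5, a synaptotagmin, fell by 1.02 (2719 and 1319 reads), and Stx1a, a SNARE protein of the plasma membrane, stood at -0.83. The general neuron markers Snap25, Syt1 and Slc17a7 stood at -0.38, -0.08 and -0.25. Kcnj10 and Kcna1 (1.12) were the called potassium channel genes, and the highest sodium and HCN channel genes were Scn4b (0.98) and Hcn4 (0.90).

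Genes that act on tau itself held no call, where 2.2% of all tested genes were called higher and 0.291% lower. At such shares a list of this size can hold none. Of 41 tau kinase and phosphatase genes, 30 lay below 0, with a median of -0.14. Mapk3 and Cdk5r2 stood at -0.44 and -0.40, Gsk3b at -0.01, Cdk5 at -0.30 and Ttbk1 at 0.05. Of 46 microtubule-associated proteins and tubulins, 0 passed 2-fold. Map1a stood at 0.35 and Map4 at 0.28, and Tubb2a, Tuba1b and Tuba4a at -0.55, -0.52 and -0.50. Among neurofilament and injury genes, Nefl, Nefm and Nefh stood at -0.33, 0.04 and 0.27. Atf3, the injury-response factor, stood at 0.96 on 27 and 88 reads, and Gap43, a growth cone protein, at -0.93 (2508 and 1304 reads).

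Protein quality control genes also held no call, beside the same shares over all tested genes. Median differences were -0.19 for 79 chaperones, -0.08 for 37 genes of the unfolded protein and integrated stress responses and -0.0027 for 41 autophagy genes. Hspa5, the main chaperone of the endoplasmic reticulum, stood at -0.43 (5833 and 4327 reads), Atf4 at -0.36 and Xbp1 at -0.26. The small heat shock genes Hspb6 and Hspb8, with their partner Bag3, stood highest, at 0.93, 0.62 and 0.48. The autophagy receptors Sqstm1 and Optn stood at -0.12 and 0.35. In the list of cell death and p53 target genes, Cdkn1a alone of 30 passed 2-fold, while Pycard, Phlda3, Fas and Casp8 stood at 0.95, 0.86, 0.84 and 0.83. Bax and Bbc3 stood at -0.14 and -0.15.

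Vessel genes were mostly level. Of 35 endothelial genes, Icam1, an adhesion molecule for leukocytes, rose by 1.05 (38 and 160 reads), and Cldn5 and Pecam1 stood at -0.22 and 0.05. Pericyte and smooth muscle genes held 0 calls of 17. Among matrix genes, Vim, Timp1 (an inhibitor of metalloproteases, 10 and 61 reads), Igfbp5 (a binding protein of insulin-like growth factors, 2162 and 5547 reads), Thbs4 and Serping1 rose, and collagens and laminins held 0 calls of 29 with a median of 0.20. Choroid plexus genes stood mostly below 0 with a median of -0.26. Ttr, transthyretin, had 63846 and 38820 reads (-0.72), Folr1 720 and 431 reads (-0.69) and Kl 2815 and 2325 reads (-0.26), and Sostdc1 fell by 1.29 (845 and 327 reads). The summed level of the 19 choroid plexus genes was 3610 FPKM in WT and 2313 in PS19, and the part of choroid plexus RNA in other differences was not tested. Ependymal cilia genes held 0 calls of 25. Haemoglobin genes stood from -0.38 to 0.18, and S100a8 and S100a9 of neutrophils, which were not called, had 5 and 18 reads and 7 and 23 reads.

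Signalling and developmental genes gave isolated calls. Tgfbr1 rose by 1.19 and Tgfbr2 stood at 0.93, both receptors for TGF-beta. Axl, a receptor for apoptotic cells, rose by 1.24 (808 and 2025 reads), and Mertk, a related receptor, stood at 0.63. Pros1, which encodes protein S, rose by 1.11 (255 and 631 reads). Hes5, a Notch target, fell by 1.11 (90 and 29 reads), Hes1 and Hey1 stood at -0.52 and -0.46, and the receptors Notch1, Notch2 and Notch3 at 0.91, 0.56 and 0.71. Ntn5, a netrin of low level, fell by 1.38 (144 and 32 reads), and Plxdc2 rose by 1.11. Among imprinted genes Dio3, which inactivates thyroid hormone, fell by 1.16 (137 and 42 reads), and Rtl1 of the same domain stood at -0.53.

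Large families without a shared cell type were centred near 0. The 299 Zfp zinc finger genes had a median of -0.02 and 0 calls, 97 chromatin-modifying enzymes 0.05 and 0 calls, 68 splicing factors -0.14 and 0 calls, and 39 clustered protocadherins 0.14 and 0 calls. Circadian clock genes stood at 0.11 in the median, and Rora, also a thalamic marker, was the called gene of 21. Among 224 solute carriers 6 rose. Slc14a1, a urea transporter of astrocytes, rose by 1.47 (321 and 1014 reads), and Slc7a2, an arginine transporter, by 1.04. The others were Slc11a1, Slc17a6, Slc43a3 and Slc15a3. Of 36 TRIM genes 4 rose, Trim30a, Trim30d, Trim34a and Trim25, from 1.04 to 1.47.

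Outside every list the higher genes included more leukocyte genes. Lag3, an inhibitory receptor that binds MHC class II, rose by 3.07 (111 and 1200 reads), Mpeg1, a pore-forming protein of macrophages, by 2.41 (354 and 2216 reads), Slamf9 by 2.19 and Plek, a substrate of protein kinase C in leukocytes, by 1.88. Chil1, a chitinase-like protein of reactive astrocytes, rose by 1.92 (116 and 573 reads), and Klk6, a protease of oligodendrocytes, by 1.91 (42 and 231 reads). Among the lower genes, Lbhd2 had 72 and 1 reads (-2.73), Capn11, a calpain, 81 and 5 reads (-1.30) and Clec3b, tetranectin, 112 and 40 reads (-1.18). Of all 317 called genes 20 had fewer than 50 reads over both libraries.

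Some calls belong to genes with near-identical copies, for which the reads of a family are better counted together. A copy at 90% identity or more over at least 50% of the shorter transcript was found for 32 higher and 10 lower genes. With the copies' reads added, 23 of the 32 higher genes and 1 of the 10 lower genes stayed past 2-fold. Rps3a1, a ribosomal protein gene, had 873 and 4442 reads, but with its copies 4765 and 4512, since Rps3a2 went from 2077 to 28. Hmga1b had 32 and 254 reads and with Hmga1 713 and 692. Atp6v0c, a proton pump subunit, had 2629 and 1253 reads, its pseudogene Atp6v0c-ps2 42 and 1785, and the family 2671 and 3038. The same held for Rps27, Rps2, Gstp2 and Pcna-ps2, whose family ratios lay between 0.788 (Rps2) and 0.944 (Gstp2). Rps18 with its copies had 2306 and 1251 reads, a ratio of 0.541. C4b with its paralog C4a remained higher, with 1154 and 13152. Gapdh remained lower, with family reads of 1634 and 242. The 2 Gapdh copies found held only 0.306% of these reads in WT and 1.24% in PS19, so adding them could hardly move the ratio. Whether reads at other Gapdh copies bear on the difference was not tested.

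**Figure D5:**
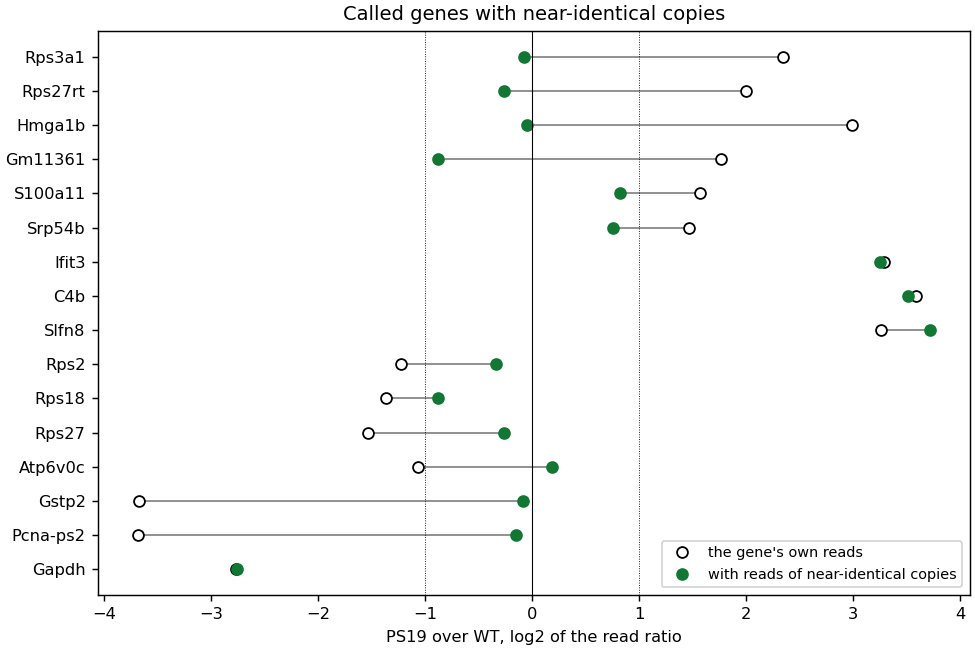
Ratio of reads, PS19 over WT, on a log2 axis, for 16 called genes with near-identical copies, from the gene's own reads (open circles) and with the copies' reads added (green), with dotted lines at 2-fold. Rps3a1, Rps27rt, Hmga1b, Rps27, Gstp2 and Pcna-ps2 move to near 0, while C4b, Ifit3, Slfn8 and Gapdh stay beyond 2-fold. The copies found for Gapdh held few reads.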

How the data were processed

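The labels' protocols name TRIzol for RNA extraction and the NEB Next Ultra kit for libraries. The submitters' processing notes name Trim Galore 0.6.5, STAR 2.5.3a, featureCounts 2.0.4 and the build mm39. Positions in the table match GENCODE M21 (GRCm38) for 98.3% of 54495 shared gene identifiers, and positions are printed from the table, as GRCm38. Strandedness, pooling and the scaling used are not given in the sources used here. The authors deposited FPKM values, 1 column per library, with each gene's name, length and biotype.

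Each deposited FPKM times gene length was a whole multiple of 1 step (100% of values within 0.01 reads), which gave the reads and implied library sizes of 17253479 (WT) and 17287957 (PS19). Differences were taken on log2(FPKM + 1), with a pseudocount of 1. Read ratios were scaled by these sizes, and their 95% intervals (exact, Clopper-Pearson) hold counting error alone, because without molecular identifiers one molecule can give several reads. With 0 reads in a library the ratio was taken against 3 reads, and counts of 1 to 3 were used as they are. No count test was run on the recovered reads, because 1 library per genotype leaves no residual.

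Near-identical copies were sought with BLAST 2.17.0 among GENCODE M21 transcripts (at least 90% identity, 200 bases and 50% of the shorter transcript). Promoters came from RefSeq. The genes and lists were chosen with earlier results of these data known. Genes named were drawn from the 20 furthest from 0 in each direction, up to 4 called genes per list and direction or the 2 furthest genes where none was called, the 10 largest higher and lower unlisted genes, checks of the labels, and members of a described family for their level, and not every gene these rules give is printed. A few further genes were picked with their values in view. Alternatives covered other pseudocounts, filters, scalings, biotypes and thresholds, and, added later, centring by gene length, with and without GC content, and copies' reads. The procedure was checked on simulated data. Gene names altered to dates number 20 in the table and were left as they are. Figures were drawn with matplotlib 3.10.9 and intervals computed with scipy 1.17.1 under Python 3.11.15.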

Additional observations from a re-analysis of the deposited data

Results flagged for a closer look

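Outside the protein-coding genes of the comparison, 10 genes of other biotypes with at least 50 reads in PS19 had at least 8 times the reads of WT per library size. Clec7a (Dectin-1), a microglial receptor for fungal glucans that the table lists as a polymorphic pseudogene, went from 1 to 428 reads, a ratio of 427 (95% interval 76.3 to 16910). Mx2, an interferon-induced GTPase of the same biotype, went from 12 to 134 reads, a ratio of 11.1 (6.17 to 22.1). The immunoglobulin kappa constant gene Igkc went from 16 to 314 reads, a ratio of 19.6 (11.9 to 34.7). For genes with 0 reads in WT the ratio was taken against a floor of 3 reads, and only a lower 95% limit is given. The variable segment Igkv8-24 went from 0 to 51 reads, a ratio to that floor of 17.0 (lower limit 13.3). The class II pseudogene H2-Ea-ps went from 0 to 85 reads, a ratio to the floor of 28.3 (lower limit 22.5). The long noncoding gene Gm26809 went from 0 to 99 reads, a ratio to the floor of 32.9 (lower limit 26.3). The processed pseudogenes Atp6v0c-ps2, Rps2-ps10, Gm13443 and Gm9825 had ratios of 42.4, 32.8, 31.1 and 17.8. For Atp6v0c-ps2 and Rps2-ps10 the parent genes Atp6v0c and Rps2 were lower in PS19. The flag covers only genes higher in PS19, and other biotypes held large differences in the opposite direction too. The processed pseudogenes Rps3a2, Rps3a3 and Hist1h2al went from 2077 to 28, 1798 to 15 and 92 to 0 reads.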

How the results depend on the processing

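The counts of 280 higher and 37 lower genes changed with the pseudocount, the filter and the scaling. They were 541 and 101 with a pseudocount of 0.1, where the same 12703 genes were tested. They were 102 and 16 of 7743 genes with a mean FPKM of at least 5, and 514 and 176 of 15013 over genes of every biotype. With each library rescaled to the same sum (TPM) they were 774 and 109 of 14770 genes, and the median of all genes went from -0.03 to 0.11. The tested set changed as well, so the TPM counts do not show the effect of scaling alone. A threshold of 1.5-fold gave 806 and 344, and one of 4-fold gave 37 and 2. The lower genes numbered 22 after centring within bins of length and 23 with GC content added, both alternatives chosen after the data were seen. The chemokine median of 0.98 turned to -0.21 with a mean FPKM of at least 5, where fewer genes were tested. A pseudocount of 0.5, scaling by total reads, centring on the median ratio and a limit of 50 reads kept both counts within 1.5 times. With 1 library per genotype no replicate could be left out, and a difference of a few reads in weakly expressed genes was not detectable at this depth. No paired analysis was possible because each genotype has 1 library and the labels give no replicate numbers.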
